A study of Mus musculus with 272 samples.

Results

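RNA in the heavy fractions of sucrose gradients, fractions 6 to 10 of 10, was compared between mouse 8-cell embryos and morulae. The libraries were taken by their stage and fraction labels, with earlier results of these data known. They are 30 of the 272 libraries of the series: 5 heavy fractions from each of 3 gradients at each stage. Each gradient (A, B and C) entered as 1 value per gene, the mean level over its heavy fractions, so that 3 gradients stood against 3. The series fractionated lysates of oocytes and embryos at 8 stages, with about 100 embryos pooled for a gradient, and sequenced every fraction beside transcriptomes of unfractionated pools of 20 embryos from the same stages. For the stages compared here, the 30 light-fraction libraries (fractions 1 to 5) of the same gradients and 8 transcriptomes, 4 of each stage, served for reference. Neither group carries a transgene or a mutation in the labels, and both were lysed with cycloheximide, which arrests ribosomes on mRNA. Mouse strain and the age of the mothers are not in the labels, which number the fractions without naming what each one holds.

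An mRNA that carries many ribosomes sediments further into a sucrose gradient than one that carries few or none, so the far fractions of such a gradient are enriched for polysomes. Between the 8-cell stage and the morula, the blastomeres compact through E-cadherin, gain an apical and a basal side, and the outer cells begin to turn on trophectoderm genes while the inner cells keep pluripotency genes. RNAs laid down in the oocyte are cleared over the first cleavages.

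Levels are in CPM, counts scaled within each library to a common total. They say what share of a fraction a transcript made up, not how much RNA the fraction held. They are compared between samples for 1 gene or for the summed level of a list. Where genes are ranked within a stage or set beside a list's sum, this is by CPM, without a correction for length. In embryo pools, fewer cells of a kind and less RNA per cell cannot be told apart. Heavy 8-cell libraries held 14.8 to 30.2 M reads (M, mega) with 4378 to 7111 genes at 1 CPM or more. Morula libraries were deeper, with 25.0 to 42.8 M reads and 5518 to 9083 genes. With every heavy library thinned to 10 M reads, the ranges were 4412 to 7124 and 5535 to 9131 genes. Across genes, the 8-cell gradients correlated with each other at Pearson's r of 0.767 to 0.779, and the morula gradients at 0.874 to 0.935. Gradient A was the least like the others among the morulae, at 0.896 and 0.874. Nothing in the labels says that gradients A, B and C came from separate sets of mothers, so p-values measure the spread between these samples.

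A gene was called when its change on the log2(CPM + 1) scale was at least 1 with an adjusted p under 0.05 (limma, Benjamini-Hochberg over all genes tested). This scale understates the change of low genes. Of 10311 genes tested in the heavy fractions, 939 were called higher in morulae (9.11%) and 528 lower (5.12%), together 14.2%, and the median change over all genes was 0.21. After quantile normalization the split was 707 higher against 647 lower. Without morula gradient A, 963 genes were called, without B 33 and without C 40. Leaving out 8-cell gradient C gave 661. Thinned to equal depth, 919 genes were called higher and 524 lower. Of 162 genes named by rule and called, 151 lost the call without morula gradient B and 147 without C. None changed direction when any 1 gradient was left out, but genes chosen as called in these gradients could hardly do so, so this is no measure of stability. In 2125 genes (20.6%) all 3 morula gradients lay above all 3 8-cell gradients, and in 1524 (14.8%) the reverse held.

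Most of the genes with the largest rises were nearly absent from 8-cell heavy fractions. Akr1b8, an aldo-keto reductase, stood at 0.532, 0.0931 and 0.303 CPM in the 8-cell gradients and at 205, 243 and 232 CPM in the morula gradients. Its log2 change was 7.45 ± 0.56 (standard error; adjusted p = 0.0018, limma). Sdc4, a cell-surface heparan sulphate proteoglycan, went from 0.386, 0.604 and 0.525 CPM to 133, 163 and 231 CPM. Both genes had reads in nearly every 8-cell heavy library, 14 of 15 for Akr1b8 and 15 of 15 for Sdc4, at levels far under those of any morula gradient. Dab2, an endocytic adaptor that marks primitive endoderm later in development, measured 0.206, 0 and 0.109 CPM at the 8-cell stage and 133, 88.5 and 107 CPM in morulae. The 8-cell transcriptomes held Dab2 at 95.1 CPM ± 23.3 (SD, n = 4), so that the transcript was present in 8-cell embryos while nearly absent from their heavy fractions. Elf3, an epithelial transcription factor, rose from 15.8, 0.144 and 11.1 CPM to 295, 798 and 546 CPM. Plin2, which coats lipid droplets, rose from 1.97, 20.0 and 2.51 CPM to 387, 708 and 507 CPM. The other genes among the 12 largest rises were Il17rc, Rab17, Nppb, Stat6, Pik3r6, Tinagl1 and Hspb8, with changes from 6.05 to 6.82. Rab17 is a small GTPase of epithelial membrane traffic, Stat6 a cytokine-activated transcription factor, Nppb a natriuretic peptide and Hspb8 a small heat shock protein. Genes on both of these lists were chosen as called genes whose groups do not overlap.

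Many of the genes with the largest falls were oocyte genes. Omt2b, an oocyte maturation gene, measured 136, 209 and 358 CPM in 8-cell gradients and 3.59, 1.26 and 2.08 CPM in morulae, a log2 change of -6.10 ± 0.57 (adjusted p = 0.0025, limma). Gdf9, a growth factor that oocytes secrete to their granulosa cells, fell from 43.3, 50.4 and 91.6 CPM to 0.487, 0.16 and 0.21 CPM. Npm2, the oocyte histone chaperone nucleoplasmin, fell from 64.7, 39.4 and 125 CPM to 0.0443, 0.596 and 0.0104 CPM. Every 8-cell gradient lay above every morula gradient for each of these. Ldhb, the heart-type subunit of lactate dehydrogenase, fell from 173, 170 and 280 CPM to 3.25, 4.82 and 4.75 CPM, with a change of -5.28 ± 0.46 (adjusted p = 0.0018, limma). Fbxw24, Oog3, E330021D16Rik, Gpr3, Bcl2l10, Omt2a, Zbed3 and Oas1d completed the 12, with changes from -6.08 to -5.24. Gpr3 is the receptor that holds oocytes in meiotic arrest, and Bcl2l10 is a BCL2 relative of oocytes. Omt2a and Omt2b are related genes, and reads could be split between them.

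**Figure D1:**
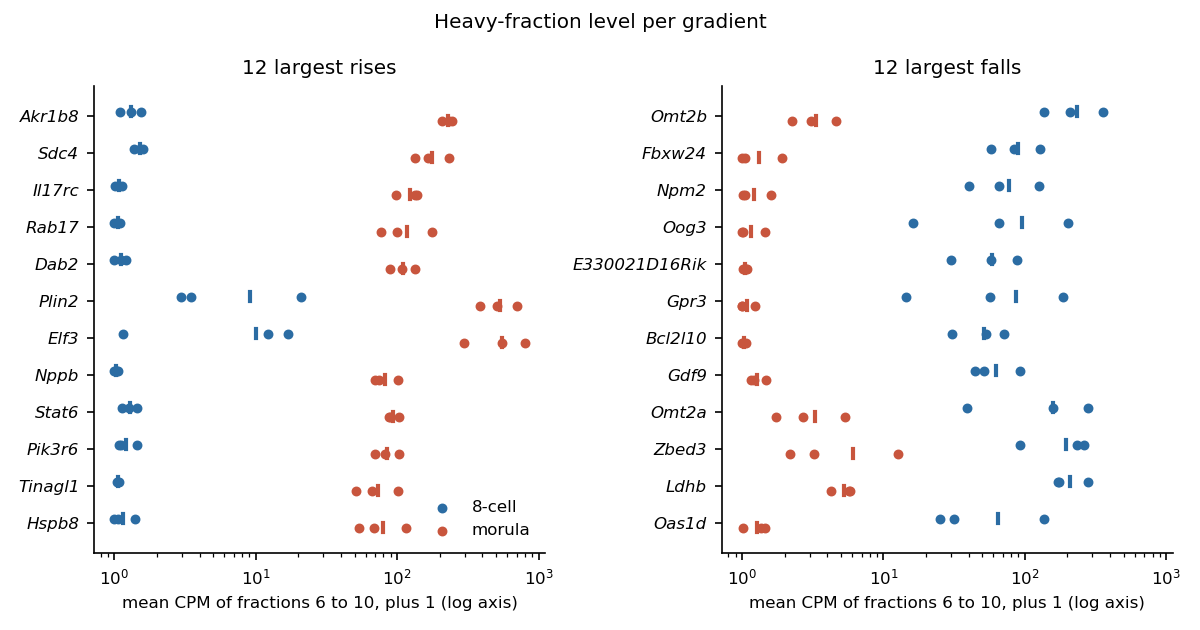
Heavy-fraction level of the 12 genes with the largest rises and the 12 with the largest falls, as mean CPM of fractions 6 to 10 plus 1 on a log axis. Each point is 1 gradient (3 per stage) and each vertical tick the mean of 3; 8-cell and morula points do not overlap for any of these genes, as for Akr1b8 (at most 0.532 against at least 205 CPM).

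Of 51 genes on a list of oocyte-specific maternal transcripts, 30 passed the filter on low values in the heavy fractions, where 21 were called lower and 1 higher (5.12% of all genes were called lower). Their median change was -3.06 beside 0.21 for all genes, and with members that had at most 3 reads in every gradient of a stage set to that floor it was -3.40. The other 21 members were under the filter, at least 1 CPM in 3 of the 6 gradient means. Members under 1 CPM in every morula gradient, such as Gdf9, passed it through their 8-cell levels alone and could only fall, which pulls the counts and medians down. With all 8 stages in the fit, 51 members were tested, 22 were called lower and 1 higher, and the median was -2.33. Among the falls was Padi6, a component of the cytoplasmic lattices of the egg, named here after its values were seen. Padi6 measured 149, 107 and 195 CPM in 8-cell gradients and 23.7, 39.5 and 39.1 CPM in morula gradients, a change of -2.10 ± 0.39 (adjusted p = 0.015, limma). Zp3, the sperm-binding zona pellucida protein, had a change of -1.44 (adjusted p = 0.11, limma) and was not called, nor was Ooep (0.61, adjusted p = 0.57, limma). The member called higher was Khdc3, a subunit of the same maternal complex as Ooep, likewise named after its values were seen. Khdc3 measured 77.2, 71.5 and 70.5 CPM in the 8-cell gradients and 813, 1270 and 1323 CPM in the morula gradients, a change of 3.91 ± 0.27 (adjusted p = 0.0018, limma). It alone supplied most of the list's summed heavy level in morulae, 946 to 1427 CPM. Without morula gradient B or C, 1 member was called lower in place of 21.

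The transcriptomes gave a different picture of the maternal genes. There 37 members were tested, 6 were called lower and 1 higher (over all genes, 4.64% lower and 9.97% higher), and the median change was -0.28. Summed over the list, 8-cell heavy fractions held 1204 to 2490 CPM and 8-cell light fractions 3816 to 5176 CPM, beside 321 to 413 CPM in the 8-cell transcriptomes. Gdf9 stood at 61.8 CPM ± 26.1 (SD, n = 3) in 8-cell heavy fractions and at 7.21 CPM ± 1.70 (SD, n = 4) in the 8-cell transcriptomes, beside 5.43 CPM ± 2.51 in the morula transcriptomes, where it was not called. The 8-cell gradients thus held these transcripts at a larger share than the unfractionated embryos of the same stage, a difference set side by side without a test. In the light fractions 41 members were tested and 26 were called lower (5.53% of all genes), and 1 was called higher.

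Markers of other cells were looked at in the same libraries. Among 6 cumulus and granulosa genes in the table, Fshr, Lhcgr and Cyp19a1 were at 0 in all 6 heavy gradient means and Inha was at 0 in the 8-cell ones, while Amhr2 was called lower. The summed level of these genes was 158 to 402 CPM in the 8-cell heavy fractions and 71.2 to 119 CPM in the morula ones, nearly all of it Amhr2. The 4 blood and stromal markers in the table summed to 121 to 142 CPM against 57.4 to 85.0 CPM, and Hba-a1, a globin chain, was called lower (-1.41). Cd68, a macrophage marker, stood at 6.55, 0.245 and 9.89 CPM and then at 36.8, 20.1 and 23.7 CPM, with no overlap between stages, and was not called (2.53, adjusted p = 0.12, limma). Odf2 alone of the sperm genes was tested, and it was not called. Their part in the results on maternal genes was not tested.

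The keratin genes Krt8 and Krt18 rose with 2 desmosome genes. Of 7 desmosome and keratin genes tested, 4 were called higher and none lower (9.11% of all genes were called higher), and the median change was 2.74, or 4.73 with members at the floor of 3 reads set to their bounds. Krt8 and Krt18, partners in the first intermediate filaments of the trophectoderm, led them. Krt8 stood at 30.2, 16.9 and 11.0 CPM in the 8-cell gradients and at 345, 780 and 626 CPM in the morulae, a change of 4.88 ± 0.46 (adjusted p = 0.0025, limma). Krt18 measured 10.3, 39.5 and 11.0 CPM and then 246, 803 and 513 CPM. Along the gradient, Krt8 in morulae was at 162 CPM ± 108 in fraction 6 and at 1399 CPM ± 434 in fraction 10, and in 8-cell embryos at 1.37 CPM ± 1.18 and 8.61 CPM ± 10.6 (SD, n = 3). The desmosomal plaque protein Pkp2 had no reads in any 8-cell heavy library and had reads in 7 of 15 morula libraries. It stood at 5.76, 7.11 and 7.76 CPM in morulae, at least 175-fold higher than 3 reads in each 8-cell gradient would give. Dsg2, a desmosomal cadherin, likewise had none and then 1.55, 8.05 and 11.1 CPM. Pkp2 and Dsg2 thus passed the filter through their morula levels alone and could only rise, which pulls the count and medians of the list up. With all 8 stages in the fit, 9 members of the list were tested, 6 were called higher and the median was 2.71. Pkp3 (-0.43, adjusted p = 0.73, limma) and Krt7 (2.74, adjusted p = 0.066, limma) were not called. In the transcriptomes all 6 tested members of the list were called higher. Without morula gradient B or C, 1 member was called in the heavy fractions.

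Regulators of the first 2 lineages moved in both directions. Of 12 trophectoderm regulators tested, 5 were called higher and 2 lower (9.11% and 5.12% of all genes), with a median change of 1.64. Gata3 measured 8.39, 0 and 4.86 CPM at the 8-cell stage and 42.5, 36.9 and 43.2 CPM in morulae, a change of 3.46 ± 0.93 (adjusted p = 0.043, limma). Dppa1 (5.88), Id2 (4.44), Klf6 (4.36) and Msx2 (2.61) were the other rises. Cdx2, a homeobox factor needed for the trophectoderm, stood at 69.5, 28.8 and 0.15 CPM and then at 298, 169 and 223 CPM. Its groups did not overlap, and its change of 4.07 ± 1.32 was not called (adjusted p = 0.076, limma). Hand1, a trophoblast factor, fell from 495, 634 and 684 CPM to 103, 126 and 150 CPM, a change of -2.25 ± 0.26 (adjusted p = 0.0054, limma). Tead4, the DNA-binding partner of YAP in the outer cells, was the other fall, named after its values were seen, with 251, 274 and 337 CPM before and 108, 130 and 123 CPM after. Its change was -1.24 ± 0.26 (adjusted p = 0.020, limma).

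Of 20 pluripotency genes tested, 4 were called higher and 3 lower (9.11% and 5.12% of all genes), and the median change was -0.63. Nanog, which marks the future epiblast, went from 6.2, 41.7 and 0.423 CPM to 193, 184 and 287 CPM (change 4.84 ± 1.07, adjusted p = 0.024, limma). Tfcp2l1, a factor of naive pluripotency, rose from 15.6, 16.1 and 16.7 CPM to 238, 391 and 285 CPM (4.13 ± 0.34, adjusted p = 0.0018, limma). Utf1 rose by 1.98 and Pou5f1, which encodes OCT4, by 1.23, the latter from 476, 490 and 385 CPM to 846, 1248 and 1093 CPM and named after its values were seen. Among the falls, Klf17 dropped from 201, 369 and 206 CPM to 26.7, 15.0 and 21.3 CPM. Klf2 fell by 2.34 and Tbx3 by 1.23 on the log2 scale. Klf2 was not called in the transcriptomes (137 CPM ± 3.29 against 145 CPM ± 29.3, SD, n = 4), and its heavy-fraction change differed from its transcriptome change by -2.41 (adjusted p = 0.00087, limma). That test used 1 spread per gene for gradients and transcriptomes together, although gradients varied more, so its p-values can be too small, here and below. Of the 15 genes of primitive endoderm and FGF signalling, Dab2, Lrp2 and Etv4 were called higher and Gata4 lower (-4.89). Gata6 was not called in the heavy fractions (0.25, adjusted p = 0.87, limma).

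Genes of compaction and polarity mostly did not pass the test. Over all genes, 9.11% were called higher and 5.12% lower, and these shares stand beside each count here. Cdh1, which encodes the E-cadherin of compaction, measured 31.9, 114 and 30.5 CPM and then 17.5, 24.6 and 57.6 CPM, with overlapping groups (-0.70, adjusted p = 0.53, limma). Of 14 adherens junction genes, Epcam and Plekha7 were called higher and none lower. Ezr, which links apical microvilli to actin, had no reads in any of the 15 8-cell heavy libraries and 22.7, 23.8 and 7.46 CPM in morulae, at least 457-fold higher than the floor of 3 reads. Among 19 polarity genes Ezr was the single gene called higher, while Crb3, Llgl2 and Mark2 fell. Crb3, an apical membrane protein of the Crumbs complex, went from 1299, 1021 and 1218 CPM to 447, 418 and 420 CPM (-1.45 ± 0.20, adjusted p = 0.0095, limma). Cldn4 was the single tight junction gene of 12 called, from 392, 247 and 229 CPM to 893, 643 and 1151 CPM. In the Hippo pathway, Sav1 rose and Nf2, the tumour suppressor merlin, fell from 133, 157 and 162 CPM to 25.8, 38.8 and 37.6 CPM, with 18 genes tested. Of 28 actin and myosin genes, 6 were called higher and none lower (median 0.92): Capg, Actg1, Actb, Tpm4, Arpc5 and Tagln2. Actg1 rose from 113, 309 and 336 CPM to 1049, 1643 and 1565 CPM.

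**Figure D2:**
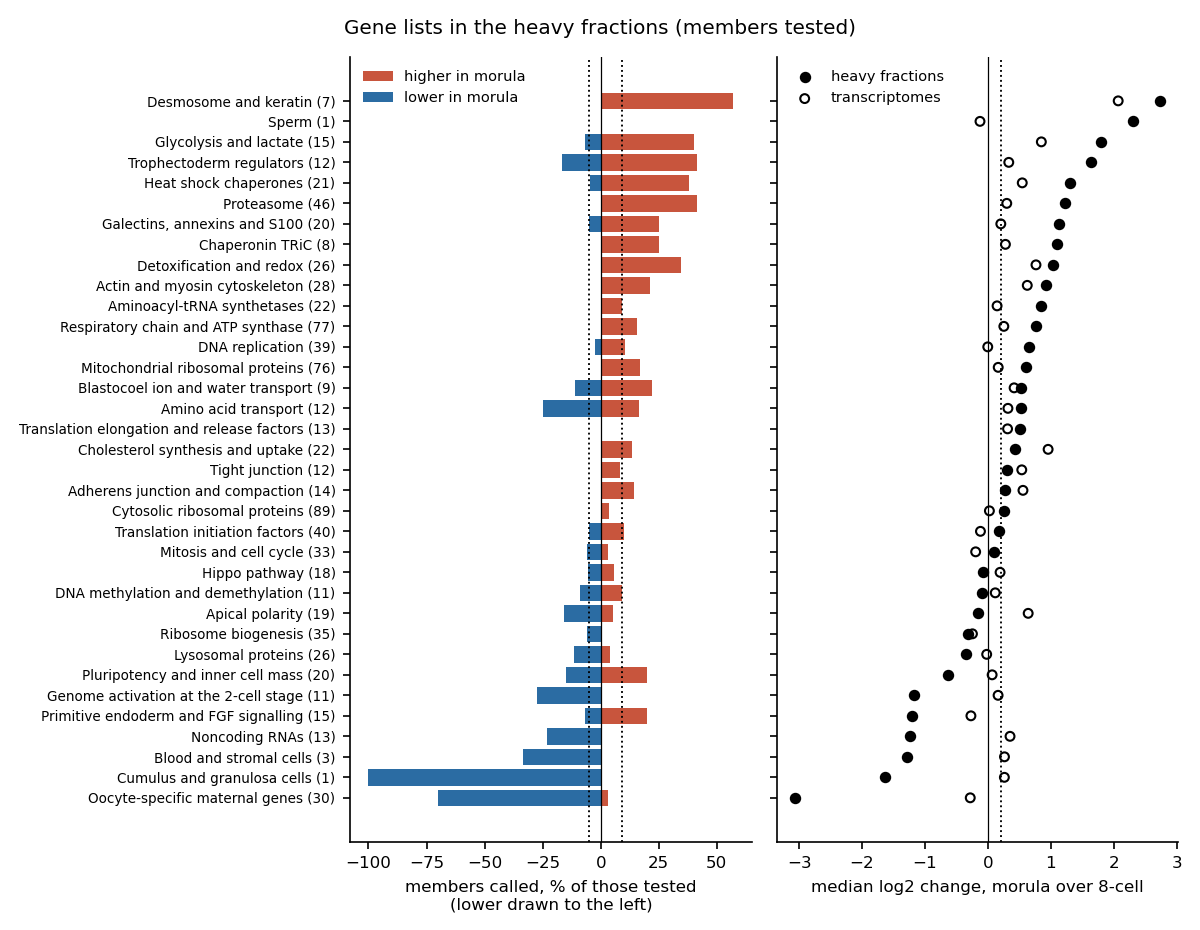
Gene lists ordered by median change, with the number of members tested in brackets. Left, the share of tested members called higher (right of 0) or lower (left of 0), with dotted lines at the 9.11% and 5.12% of all genes; right, the median log2 change in heavy fractions (filled) and transcriptomes (open), with a dotted line at the heavy median of all genes, 0.21. The maternal list lies lowest in the heavy fractions, at -3.06, while its transcriptome median, over the 37 members tested there, is -0.28. Lists with 1 to 3 members tested show single genes.

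Many genes of the proteasome, the complex that degrades ubiquitin-tagged proteins, rose. All 46 genes of the list passed the filter, 19 were called higher and none lower (9.11% and 5.12% of all genes). Their median change was 1.23. In 33 of the 46 the morula gradients all lay above the 8-cell ones (20.6% over all genes), and in none did the reverse hold. The core particle, which cuts proteins, had 9 of 17 genes called, and the regulatory particle, which unfolds them, 8 of 20. Activators and assembly chaperones had 2 of 9. Psmc2, an ATPase of the regulatory particle, measured 32.0, 128 and 30.2 CPM at the 8-cell stage and 319, 301 and 282 CPM in morulae (2.56 ± 0.53, adjusted p = 0.020, limma). Psmd12, a scaffold subunit, went from 41.4, 49.9 and 16.2 CPM to 214, 163 and 183 CPM (2.48 ± 0.46, adjusted p = 0.015, limma). Psmb9, a subunit of the immunoproteasome, went from 2.01, 0 and 0.0262 CPM to 13.5, 18.3 and 25.0 CPM. Psmb4, with a change of 1.25, missed the threshold (adjusted p = 0.055, limma). Without morula gradient B or C none of the 46 was called, and edgeR on recovered reads called 8.

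The proteasome's summed level in the heavy fractions was 7843 to 9911 CPM in 8-cell and 20718 to 23240 CPM in morula gradients. In the transcriptomes it was 14669 to 15777 and 14631 to 17756 CPM, ranges that overlapped. There 2 of 45 tested members were called higher and 1 lower (9.97% and 4.64% of all genes), with a median of 0.30. When the heavy-fraction change was tested against the transcriptome change, 14 of 46 members were called for a larger rise in the heavy fractions and none for a smaller one (4.33% of 12473 genes were called higher and 3.14% lower in that test). The test used 1 spread for gradients and transcriptomes together. With array weights per library kind it called 298 genes in place of 932 over all genes. In the light fractions the summed level was 4301 to 5151 CPM and then 7420 to 9854 CPM, 9 of 44 tested members were called higher there and none lower (6.15% and 5.53% of all genes), and none of 46 was called for a shift between heavy and light. Psmd12 was one of the 14 (2.46, adjusted p = 0.0025, limma): its transcriptome level was 499 CPM ± 30.7 and 509 CPM ± 37.5 (SD, n = 4).

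**Figure D3:**
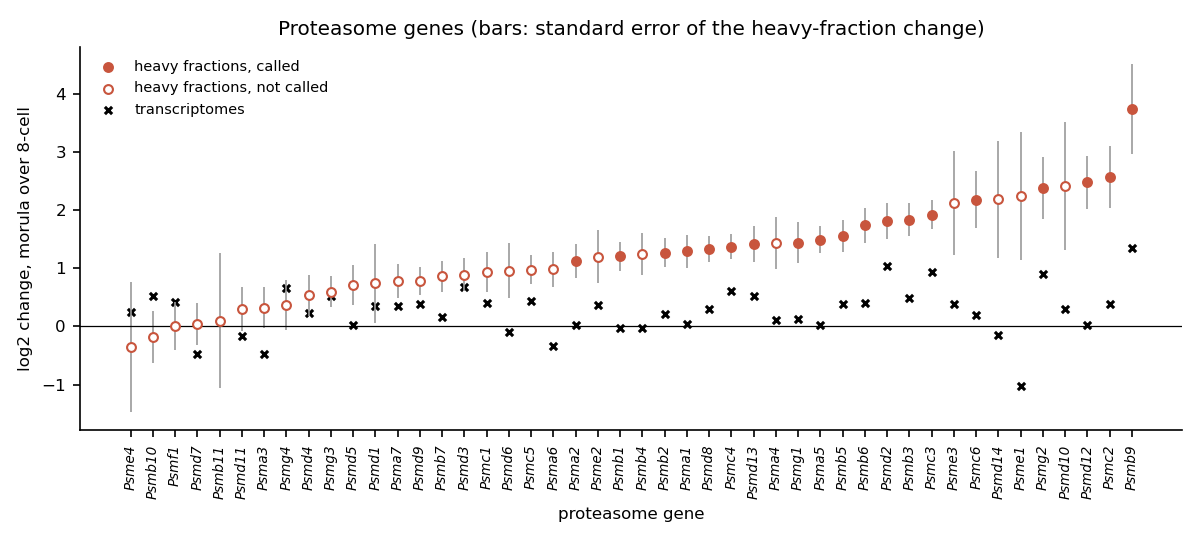
Log2 change from 8-cell to morula for the 46 proteasome genes, ordered by heavy-fraction change. Circles are heavy fractions (filled where called, bars the standard error from the fit to 3 against 3 gradients) and crosses the transcriptomes (4 against 4, shown for the 45 tested); the heavy median is 1.23 and the transcriptome median 0.30.

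Genes of mitochondria gave smaller medians. Of 77 nuclear-encoded genes of the respiratory chain and ATP synthase, 12 were called higher and none lower (over all genes, 9.11% higher and 5.12% lower), with a median of 0.77, and 42 had all morula gradients above (20.6% over all genes). Sdhb, the iron-sulphur subunit of complex II, went from 21.3, 74.8 and 53.9 CPM to 219, 292 and 277 CPM, and Ndufs3 of complex I from 94.8, 38.9 and 69.0 CPM to 213, 344 and 258 CPM. Of 76 mitochondrial ribosomal protein genes 13 were called higher and none lower beside the same shares of all genes, with a median of 0.60. Neither list kept a call without morula gradient B or C. Glycolytic genes gave 6 rises and 1 fall among 15 tested (9.11% and 5.12% over all genes), with a median of 1.80. Eno1 (3.71), Tpi1 (3.70), Gapdh (3.50), Hk2 (2.65) and Pkm (2.49) were among the rises, and Ldhb, above, was the fall. Eno1, enolase, measured 29.1, 15.2 and 13.7 CPM and then 224, 317 and 224 CPM. Ldha, the muscle-type lactate dehydrogenase, had non-overlapping groups with a change of 1.80 that was not called (adjusted p = 0.064, limma).

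Chaperone and redox genes were called mostly higher. Of 21 heat shock and related chaperone genes, 8 were called higher and 1 lower (9.11% and 5.12% of all genes). The fall was P4hb, a disulphide isomerase subunit named after its values were seen (-1.56). Hsp90aa1, the inducible cytosolic HSP90, rose from 43.7, 78.1 and 115 CPM to 370, 610 and 869 CPM (2.97 ± 0.44, adjusted p = 0.010, limma). All 8 TRiC chaperonin genes had a change above 0 and 2 of them, Cct6a and Cct8, were called. In the detoxification and redox list 9 of 26 tested genes were called higher and none lower (9.11% and 5.12% of all genes), with a median of 1.04. Srxn1, sulfiredoxin, stood at 0.0753, 0.0269 and 0.0487 CPM and then at 38.4, 35.5 and 19.6 CPM (4.88 ± 0.70, adjusted p = 0.0099, limma). Hmox1, haem oxygenase, and Txnrd1, thioredoxin reductase, had changes of 4.67 and 3.62. Gsto1, a glutathione transferase, went from 85.8, 99.6 and 82.3 CPM to 611, 737 and 583 CPM. Gstp1 (2.59) shares near-identical sequence with Gstp2, and reads could be split between them.

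The promoters of the redox genes called higher were searched for a form of the antioxidant response element, the site bound by NRF2. The letters TGACNNNGC were looked for on both strands in the 250 bases before each annotated start (RefSeq, GRCm38.p6). Other forms of the element were not searched for, and TGAGTCAGC, which stands in the promoters of Gstp1, Gstp2 and Srxn1, was not counted. Of the 9 redox genes called higher, 8 had a promoter in the table and 2, Txnrd1 and Prdx1, held a match, in 2 of 10 promoters (20.0%). Among 10185 promoters of the genes tested 11.9% held one, and among all 32851 promoters 10.2%, so the 2 matches are a description and no more. The promoters are shown with the matched letters in capitals, which begin 92 and 133 bases before the start, both on the opposite strand. Txnrd1 lies on chr10:82858956-82859205 and Prdx1 on chr4:116685349-116685598, both on the plus strand. Prdx1, peroxiredoxin 1, was named for its match after its values were seen; it went from 268, 334 and 434 CPM to 1194, 945 and 895 CPM.
Txnrd1: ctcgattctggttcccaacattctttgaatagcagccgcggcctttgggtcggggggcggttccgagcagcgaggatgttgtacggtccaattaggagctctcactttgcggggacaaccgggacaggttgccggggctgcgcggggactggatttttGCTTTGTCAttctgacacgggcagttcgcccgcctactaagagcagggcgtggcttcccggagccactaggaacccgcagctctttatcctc
Prdx1: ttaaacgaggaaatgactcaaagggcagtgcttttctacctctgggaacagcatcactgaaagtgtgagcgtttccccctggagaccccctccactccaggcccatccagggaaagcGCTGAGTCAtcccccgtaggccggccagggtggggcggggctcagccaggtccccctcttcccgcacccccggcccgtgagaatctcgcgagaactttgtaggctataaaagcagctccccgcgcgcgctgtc
The letters GGAATG, read by TEAD factors, were in none of the 7 promoters found for the trophectoderm, keratin and desmosome genes called higher. TAATTA or TAATTG, read by the oocyte factor NOBOX, were near the start of 2 of the 16 maternal genes called lower that had a promoter, in 8.70% of these promoters beside 6.17% of those of genes tested. For the TEAD letters that share was 10.6%.

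Of 89 cytosolic ribosomal protein genes tested, Rps4x, Rpl7 and Rps4l were called higher and none lower (9.11% and 5.12% over all genes), and the median change was 0.26. In the light fractions 12 of 90 were called higher and none lower (6.15% and 5.53% over all genes), with a median of 0.63 beside 0.02 for all genes. For a shift between heavy and light, 3 of 90 were called toward the light side (0.0344% over all genes) and none toward the heavy side. Rps4x measured 521, 521 and 570 CPM and then 1287, 1449 and 1241 CPM (1.30 ± 0.20, adjusted p = 0.011, limma), and Rps4l is a close copy of it with which reads could be shared. Among 40 initiation factor genes 4 were called higher and 2 lower, near the shares of all genes. Eif4ebp1, which holds the cap-binding protein eIF4E inactive, rose from 722, 390 and 444 CPM to 1469, 1864 and 1585 CPM. Eif1 (-1.54) and Eif3c (-1.62) fell, and Eif3e (1.49), Eif3k (1.31) and Eif2s2 (1.29) rose. None of 13 elongation and release factor genes was called by limma or by edgeR, and 5 had an unadjusted p under 0.05. Of 35 ribosome biogenesis genes, Rrp12 (-3.60) and Polr1a (-2.54), the large subunit of RNA polymerase I, were called lower and none higher. That is near the 5.12% of all genes called lower. With the median of fractions in place of their mean the change of Polr1a was 1.13, and edgeR called none of the 35.

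Among lysosomal genes the cathepsins Ctsb (-2.11), Ctsl (-2.12) and Ctsa (-1.34) fell, while Sqstm1, the autophagy receptor p62, rose (2.19), of 26 tested. Over all genes, 9.11% were called higher and 5.12% lower, the shares to set beside every count in this paragraph. Of 20 galectin, annexin and S100 genes, 5 were called higher, led by Lgals1 and Anxa2, and 1 lower (9.11% and 5.12% of all genes). The fall was S100a2, from 7.93, 9.67 and 10.1 CPM to 1.38, 0.563 and 0.553 CPM (-2.51, adjusted p = 0.037, limma). Lgals1, galectin 1, went from 20.9, 7.65 and 2.31 CPM to 80.1, 179 and 167 CPM. The transcriptome level of Lgals1 was 6.43 CPM ± 2.11 and 2.66 CPM ± 0.61 (SD, n = 4), and its heavy change exceeded its transcriptome change by 4.97 (adjusted p = 0.0020, limma). Dnmt1, the maintenance DNA methyltransferase, fell from 53.4, 96.3 and 82.8 CPM to 0.824, 8.94 and 7.28 CPM (-3.84 ± 0.77, adjusted p = 0.018, limma), while its transcriptome level was 25.8 CPM ± 3.31 and 24.9 CPM ± 7.64. Dnmt3b rose (2.78). Of 12 amino acid transporter genes tested, Slc38a4 and Slc38a1 rose and Slc6a9, Slc6a6 and Slc1a5 fell. Of 11 genes of activation at the 2-cell stage, Tdpoz4, Sp110 and Obox6 fell and none rose. Gas5, Snhg1 and Dancr fell among 13 noncoding RNAs and none rose.

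Of 39 DNA replication genes, Lig1 (3.17), Gins2 (2.74), Rfc2 (2.22) and Tyms (1.15) rose and Cdt1, which licenses origins, fell from 331, 414 and 548 CPM to 141, 179 and 135 CPM. Of 33 mitosis genes Bub1 rose, and Aurkc and Ccna2 fell. Over all genes 9.11% were called higher and 5.12% lower, beside these counts and those that follow. Of genes that serve ion and water transport into the blastocoel, Atp1b1, a subunit of the sodium pump, rose (2.74) and the water channel gene Aqp11 fell (-2.63). Of 22 cholesterol genes Nsdhl, Hsd17b7 and Pmvk rose in the heavy fractions and none fell. In the transcriptomes 10 of 22 were called higher, beside 9.97% of all genes. Pmvk, phosphomevalonate kinase, went from 40.4, 22.4 and 25.5 CPM to 196, 221 and 159 CPM. Of 22 aminoacyl-tRNA synthetase genes Dars and Sars rose, near the share of all genes called higher, and none fell.

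At the top of the range, Rpl41 led the 8-cell heavy fractions with 30471, 21570 and 23543 CPM, and Rpl41, Eif5a, Dppa5a and Map1lc3b were among the 10 highest at both stages. Mt1, metallothionein 1, was a high gene that fell, from 9460, 5607 and 7776 CPM to 3124, 1626 and 1600 CPM (-1.89 ± 0.32, adjusted p = 0.014, limma). Eif5a stood at 10473, 9021 and 8380 CPM and then at 13432, 13838 and 12195 CPM and was not called (0.51, adjusted p = 0.12, limma).

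Over all genes, the transcriptomes called 1116 genes higher and 519 lower of 11195 (14.6%). Of 9621 genes tested in both, 441 were called in both and 436 of these in the same direction, which was 34.9% of the heavy calls and 31.3% of the transcriptome calls. Genes called higher in the heavy fractions had a median change of 2.52 there and of 0.82 in the transcriptomes, and genes called lower had -2.23 and -0.59. The test of the heavy change against the transcriptome change called 540 genes higher and 392 lower of 12473 (7.47%). With array weights per library kind, which let gradients and transcriptomes differ in spread, it called 169 higher and 129 lower. The genes of that test included Il17rc (6.39), Rab17 (5.58), Dppa1 (5.53), Xbp1 (5.15), Pik3r6 (5.10) and Dab2 (5.06) toward morula heavy fractions, and Fbxw24 (-6.11), Zbed3 (-5.22), Gdf9 (-5.14) and Bcl2l10 (-5.08) toward the 8-cell ones. Xbp1, a transcription factor of the unfolded protein response, stood at 11.8, 0.0312 and 0.154 CPM and then at 107, 148 and 151 CPM in the heavy fractions, beside transcriptome means of 2.16 CPM ± 0.89 and 4.41 CPM ± 3.31 (SD, n = 4). Genes called higher in the heavy fractions had a median coding length of 1047 bases, those called lower 1281 bases, and all genes tested 1284 bases.

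**Figure D4:**
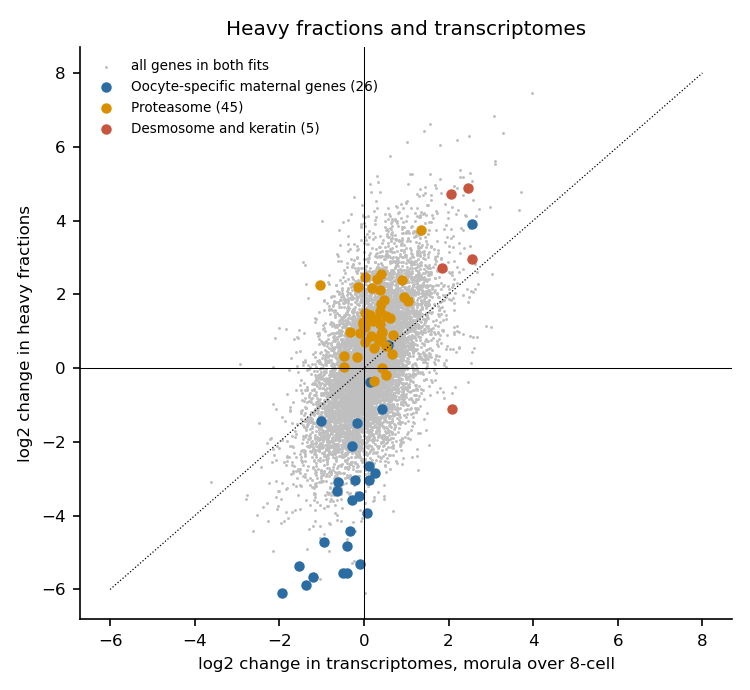
Log2 change from 8-cell to morula in the heavy fractions (vertical) against the transcriptomes (horizontal) for each gene tested in both, with the line of equal change dotted. Maternal genes (blue) mostly lie below the line and proteasome genes (orange) mostly above it. Medians over the list members tested in each fit, not only those drawn, were -3.06 (30 maternal genes) and 1.23 (46 proteasome genes) in the heavy fractions. In the transcriptomes they were -0.28 (37) and 0.30 (45).

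Few genes were called for a move along the gradient. The light fractions of the same gradients called 663 genes higher and 596 lower of 10776 (11.7%). Heavy and light fractions come from the same lysates, so their changes are set side by side only: genes called higher in the heavy fractions had median changes of 2.54 there and 1.64 in the light ones, and genes called lower -2.24 and -1.74. A test of the heavy change against the light change within gradients called 8 of 11613 genes (0.0689%), 4 in each direction (0.0344% each), with 1382 at an unadjusted p under 0.05. Leaving out 1 gradient at a time gave 1 to 3 calls.

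Ubb, a polyubiquitin gene, moved most toward the heavy side. Its heavy level was 815, 821 and 1137 CPM in 8-cell and 3653, 3792 and 3022 CPM in morula gradients, and its light level 2351, 1690 and 2764 CPM and then 1317, 1237 and 1184 CPM. Heavy and light levels thus moved in opposite directions with no overlap between stages, and the shift was 2.76 ± 0.17 on the log2 scale (adjusted p = 0.0011, limma). The mean fraction number of its CPM went from 4.56 ± 0.24 to 7.18 ± 0.16 (SD, n = 3). That mean weights each fraction by the CPM in it, not by how much RNA the fraction held. Ubb-ps, a pseudogene of near-identical sequence, gave 2.70 and cannot be told apart from Ubb by its reads. Ppp1ca, a catalytic subunit of protein phosphatase 1, shifted by 1.99 ± 0.22 (adjusted p = 0.019, limma), from 639, 616 and 549 CPM to 1137, 2003 and 1573 CPM in the heavy and from 684, 1053 and 703 CPM to 395, 665 and 502 CPM in the light fractions. Sgta, a cochaperone, shifted by 1.56 through its light level, which fell from 1480, 1524 and 1521 CPM to 395, 552 and 536 CPM.

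The ribosomal protein genes Rpl41, Rpsa and Rps29 and the mitochondrial gene COX1 moved the other way. Of 90 cytosolic ribosomal protein genes in that test, 16 had a shift above 0, and their median was -0.41 beside 0.07 for all genes. Rpl41 shifted by -1.71 ± 0.18 (adjusted p = 0.018, limma): heavy levels went to 20317, 8801 and 9568 CPM in morulae, while light levels rose from 17314, 15486 and 14729 CPM to 31284, 22736 and 21307 CPM. Rpsa, a small-subunit protein, shifted by -1.64 as its light level rose from 919, 575 and 457 CPM to 2737, 4236 and 3517 CPM. Rps29 shifted by -1.43. COX1, encoded in mitochondrial DNA and read by mitochondrial ribosomes, shifted by -1.60 ± 0.15 (adjusted p = 0.0099, limma) from 1426, 3564 and 1931 CPM to 301, 383 and 836 CPM in the heavy fractions.

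**Figure D5:**
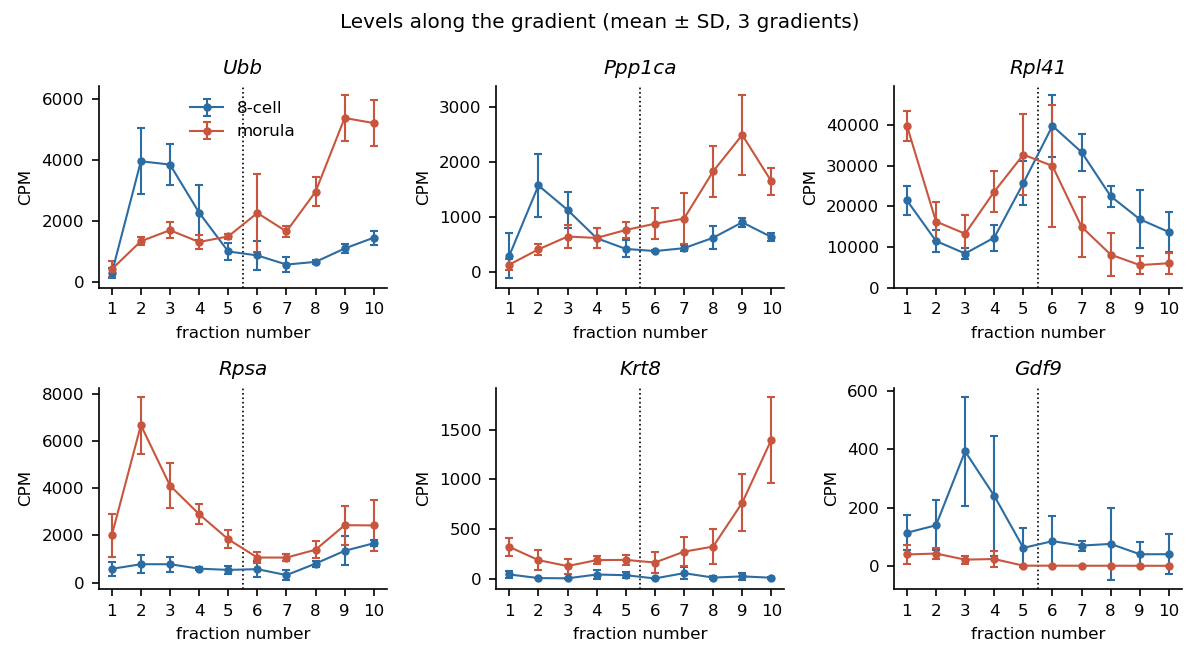
CPM by fraction number for Ubb, Ppp1ca, Rpl41, Rpsa, Krt8 and Gdf9 in 8-cell and morula gradients (mean ± SD, 3 gradients each), with a dotted line between the light and heavy fractions. Ubb is highest in fractions 2 and 3 at the 8-cell stage (3954 CPM in fraction 2) and in fractions 9 and 10 in morulae (5376 CPM in fraction 9), while Krt8 and Gdf9 differ between stages in both parts of the gradient.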

How the data were processed

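RNA from gradient fractions and from unfractionated pools had been amplified with Smart-seq2 chemistry, per the labels' protocols. The submitters' processing notes name Trim Galore 0.6.7, FastQC, HISAT2 2.2.1, featureCounts 2.0.1, edgeR and GRCm39 without their roles, and the strand setting of the counting is not given in the sources used here. The authors deposited CPM per gene and library for 15854 symbols. In 76 groups, 159 symbols held identical values in every library, and 1 per group was kept, leaving 15771 genes. Deposited columns of other stages whose sums exceed that of CPM because of such repeats were treated as signal on the authors' scale, used only for the other stages. In the libraries of the 8-cell and morula stages 100% of values were whole multiples of 1 read within 0.05 reads, so counts were recovered from the deposited CPM: edgeR 4.0.16 on these called 630 genes in the heavy fractions and DESeq2 1.42.0 called 2270.

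CPM was averaged over fractions 6 to 10 (heavy) or 1 to 5 (light) of each gradient and tested as log2(CPM + 1) with limma 3.58.1 (with a mean-variance trend) and Benjamini-Hochberg adjustment (R 4.3.3), without a replicate block. Genes were tested where at least 1 CPM was reached in 3 of the 6 gradient means (4 of the 8 transcriptomes). A gene low at 1 stage could therefore enter through the other stage alone. The heavy change was also tested against the transcriptome change (4 against 4 libraries) and, within gradients, against the light change. A call needed an adjusted p under 0.05 and a log2 change of at least 1. Lower bounds were used for genes with at most 3 reads in every gradient of a stage. They take the level of 3 reads in 1 gradient, placed in the shallowest heavy fraction of the stage. That is 0.0393 CPM in 8-cell and 0.0234 CPM in morula heavy means, which cover counting error only. Named genes were the 12 largest non-overlapping rises and falls at 20 CPM or more, up to 6 called and 3 uncalled members of each of 35 lists, the extremes of the other tests and the 10 highest genes of each stage; exceptions are marked. The libraries and lists were chosen with earlier results of these data known, and some list symbols were respelled to match the table. The scripts were tested on simulated data. Alternatives covered pseudocount, filter, normalization, count models, fraction sets, depth (chosen after seeing the data) and left-out samples.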

Additional observations from a re-analysis of the deposited data

Results flagged for a closer look

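In 3 of the transcriptome groups of 4 for the 24 genes with the largest heavy-fraction changes, 1 library stood apart from the other 3 by more than the 95% limit for such a gap, which chance passes in about 1 group in 20. Ldhb was lowest in morula transcriptome C, at 12.6 CPM beside 21.1, 22.1 and 22.5 CPM. Rab17 was found in 8-cell transcriptome B alone, at 0.0677 CPM, which is the level of 1 read in that library. Hspb8 was found in 8-cell transcriptome C alone, at 0.646 CPM. For Rab17 and Hspb8 the other 3 libraries were at 0, so any value above 0 passes the limit and the rate of 1 in 20 does not apply.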

How the results depend on the processing

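In the heavy fractions 1467 genes were called. The count was 865 without a filter, 630 by edgeR and 2270 by DESeq2 on recovered reads, and 33 to 1266 when 1 gradient was left out (33 without morula B, 40 without morula C, 661 without 8-cell C, 963 without morula A). Taking the mean of log2 values over fractions moved the split to 1585 higher and 335 lower, and DESeq2 to 1173 and 1097. In the light fractions 1259 genes were called, with 679 without a filter, 404 by edgeR, 2106 by DESeq2, 2044 with all 8 stages in the fit and 79 to 1089 with 1 gradient left out, including 79 without morula B, 107 without morula C, 712 without 8-cell B and 781 without morula A. The transcriptome count of 1635 became 640 with log2(CPM + 5). Of the heavy change beyond the transcriptome, 932 genes became 298 with array weights and 608 to 1777 with 1 sample left out (608 without 8-cell transcriptome C, 1643 and 1777 without 8-cell gradients A and B). The 8 genes shifted along the gradient became 2 without a filter, 5 after quantile normalization and 1 to 3 with 1 gradient left out. With the median of fractions in place of the mean, Pkp3 had a change of 3.79 and Polr1a of 1.13, both above 0 where the mean gave values below 0. The cause of these differences was not tested. Of the 162 named genes called in the heavy fractions, 4 lost the call at equal depth.

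Gradient letters are shared between stages. Deviations of same-lettered gradients correlated at -0.006, -0.072 and 0.000, so the letters were not taken to pair the gradients. With the replicate block 582 genes were called in the heavy fractions. Light libraries reached as few as 0.184 M reads, against 14.8 M for the shallowest heavy one, which limits low genes there.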

Other observations

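Heavy-fraction levels at other stages, not tested here, place the largest changes in the longer course. Stat6 measured 146, 170 and 187 CPM in germinal vesicle oocytes, 1.42, 0.638 and 11.3 CPM at the 4-cell stage, and 151, 126 and 89.3 CPM in blastocysts, so the 8-cell embryo lay at its low point. Dab2 stood at 22.4, 44.7 and 23.3 CPM in those oocytes and at 76.3, 45.9 and 134 CPM in blastocysts. Tinagl1 was at 0 in oocytes and at 199, 98.4 and 165 CPM in blastocysts. Akr1b8 reached 549, 490 and 594 CPM in blastocysts, and Krt8 2107, 2620 and 3092 CPM. Nppb stood at 12.1, 22.6 and 14.1 CPM in blastocysts, under each of its morula values.

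Among the falls, Gdf9 stood at 8128, 8362 and 7674 CPM in germinal vesicle oocytes and at 3.37, 328 and 159 CPM at the 4-cell stage, where gradient A lay below the other two. Ldhb measured 952, 744 and 703 CPM at the 4-cell stage and 1.84, 3.62 and 5.28 CPM in blastocysts. Hand1 was at 0 in oocytes, at 241, 721 and 757 CPM at the 4-cell stage and at 31.3, 54.3 and 25.5 CPM in blastocysts, so that its 8-cell level followed a rise within the embryo.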
